A study of Rattus norvegicus with 13 samples.

Results

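The comparison of spironolactone with vehicle at day 7 comprised 7 RNA-seq libraries of the 13 in the series, chosen by their titles: spironolactone replicates 1 to 3 and vehicle replicates 1 to 4. Each library was made from total RNA of peripheral cornea and limboscleral tissue of male wild-type Lewis rats, 2 months old, in which corneal neovascularization and a deficiency of limbal stem cells were modelled. Treated animals received 25 mg/kg/day of spironolactone and vehicle animals 90% olive oil with 10% DMSO. The protocol text, which is the same for every library, states 3 days of daily subcutaneous injection, so the length of treatment before day 7 is not settled by the labels. The labels do not say whether the libraries came from separate animals, and the p-values below therefore measure the spread between these libraries, which may be partly technical. The comparison asked which transcripts differed in level between the treatments at day 7.

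Spironolactone is a steroid that blocks the mineralocorticoid receptor, a nuclear receptor that binds aldosterone and glucocorticoids and regulates transcription of sodium transport, inflammatory and matrix genes in many tissues. The limbus, the ring between cornea and conjunctiva, holds the stem cells that renew the corneal epithelium. When it is lost, conjunctival epithelium and blood vessels advance over the cornea. A dissection of this region can hold epithelium, stromal cells, vessels, nerves and immune cells, and in bulk RNA a change in the number of cells of a type and a change in RNA per cell cannot be told apart.

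The day 7 files give estimated read counts per Ensembl gene ID, and no source used here pairs these IDs with gene names. Genes are therefore given by ID, no marker list could be set against the labelled tissue, and no sequence is shown. Library totals ran from 17.9 M to 26.5 M estimated counts, and 17984 to 18340 of the 32623 IDs had at least 1 count. In all 7 libraries together 12143 IDs were at 0, and 15396 IDs passed the filter on low counts and were tested. These tested IDs held over 99.9% of the counts in every library (lowest 99.95%). As a check for a library deposited more than once, chi-square per ID was 7.54 to 33.1 within the groups, so no pair agreed within sampling noise. That statistic covers counting error only and moves with depth.

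No ID differed between spironolactone and vehicle past the threshold. Of 15396 IDs, edgeR's quasi-likelihood test called 0 (0%) at a Benjamini-Hochberg adjusted p of 0.05, and the lowest adjusted p was 0.328. At an unadjusted p under 0.05 there were 2018 IDs, of which 994 (6.46% of those tested) had higher values with spironolactone and 1024 (6.65%) lower. Limma-voom called 0 IDs (lowest adjusted p 0.314), with 2075 at an unadjusted p under 0.05. DESeq2 called 88 of the 11217 IDs to which it gave an adjusted p, 58 higher (0.517%) and 30 lower (0.267%). All 3 spironolactone values lay above all 4 vehicle values in 994 IDs (6.46%) and below them in 904 (5.87%). The 994 that were higher by the test and the 994 that were higher without overlap are separate counts that happen to be equal.

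Differences between the group means were small for most IDs. The log2 fold change, spironolactone minus vehicle, had a median of -0.01 and quartiles of -0.12 and 0.10, with 7376 positive and 8020 negative values. Its 95% interval lay wholly within 2-fold in either direction for 13949 IDs (90.6%) and within 1.5-fold for 11562 (75.1%). That precision followed abundance. Of the 1043 IDs with a mean under 1 CPM (the estimated count relative to the TMM-scaled library total), 29.8% had an interval within 2-fold, against 98.3% of the 8195 IDs at 10 to 100 CPM and 99.2% of the 2112 IDs over 100 CPM. The median standard error of the log2 fold change was 0.38 under 1 CPM and 0.07 over 100 CPM. For most of the rarest transcripts a 2-fold difference was therefore not excluded. The power to detect one was not computed.

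**Figure D1:**
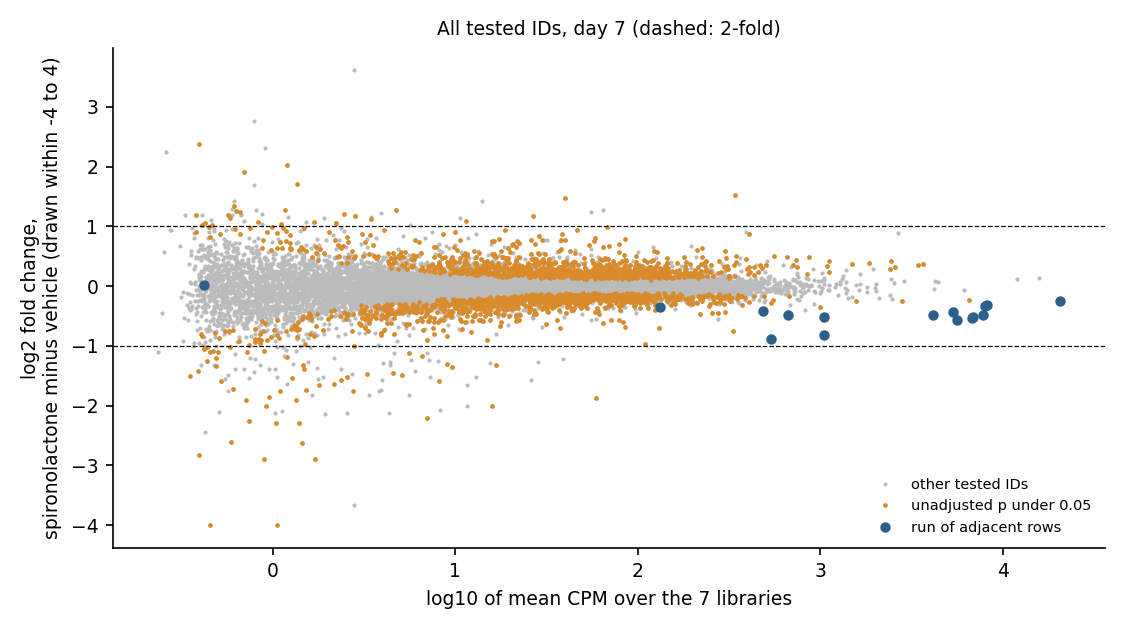
The horizontal axis gives the log10 mean CPM of each tested ID over the 7 libraries and the vertical axis its log2 fold change, spironolactone minus vehicle, with values beyond 4 drawn at 4; orange points have an unadjusted p under 0.05 and blue points belong to a run of adjacent abundant rows described below. Values past the dashed 2-fold lines lie mostly at low CPM, and 15 of the 16 blue points lie below 0.

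Fold changes past 2-fold were found mainly among rare transcripts. The group means differed by more than 2-fold for 172 IDs, 53 higher and 119 lower with spironolactone, and the median abundance of these was 1.25 CPM, against 21.2 CPM over all tested IDs. Among the 10307 IDs with a mean of 10 CPM or more, only 18 were past 2-fold, 8 higher and 10 lower. The groups did not overlap in 45 of the 172 IDs, 18 higher and 27 lower, against 12.3% of all tested IDs in either direction. Since the 172 were chosen by the same difference, nothing is read from that count. No ID had 10 counts in every library of one group and 0 in every library of the other, in either direction. In 61 of the 119 lower IDs the 2 highest vehicle values were those of vehicle replicates 1 and 4, an arrangement found in 11.7% of all tested IDs. In 24 of the 53 higher IDs they were those of vehicle replicates 3 and 4, against 27.5% of all tested IDs. Choosing IDs by the group means partly fixes the 61 and the 24, so nothing is read from them.

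The ID with the smallest p was higher with spironolactone. ENSRNOG00000007582 had 30.5, 30.4 and 32.7 CPM with spironolactone and 21.2, 21.5, 23.7 and 24.7 CPM with vehicle, so every treated library lay above every vehicle library. The means were 31.2 ± 1.29 CPM (SD, n = 3) and 22.8 ± 1.698 CPM (SD, n = 4), a log2 fold change of 0.45 (SE 0.074; edgeR adjusted p = 0.328). ENSRNOG00000026919, with the next smallest p in this direction, had 28.9, 25.9 and 27.4 CPM against 15.7, 14.9, 19.7 and 19.1 CPM. Its log2 fold change was 0.66 (SE 0.11; edgeR adjusted p = 0.328), again with no overlap between the groups.

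In the other direction the smallest p belonged to a more abundant transcript. ENSRNOG00000004635 had 268.5, 195.6 and 252.9 CPM with spironolactone and 441, 349, 440 and 374 CPM in the vehicle libraries. The means were 239 ± 38.4 CPM (SD, n = 3) and 401 ± 47.0 CPM (SD, n = 4), with no overlap, and the log2 fold change was -0.75 (SE 0.13; edgeR adjusted p = 0.328). ENSRNOG00000046867 had 12.7, 11.4 and 12.2 CPM against 20.5, 17.9, 18.02 and 15.6 CPM, without overlap. Its log2 fold change was -0.57 (SE 0.10; edgeR adjusted p = 0.328). All 4 of these IDs were among the DESeq2 calls, with DESeq2 adjusted p of 4.89e-04, 2.28e-04, 1.95e-05 and 0.00189 in the order given.

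**Figure D2:**
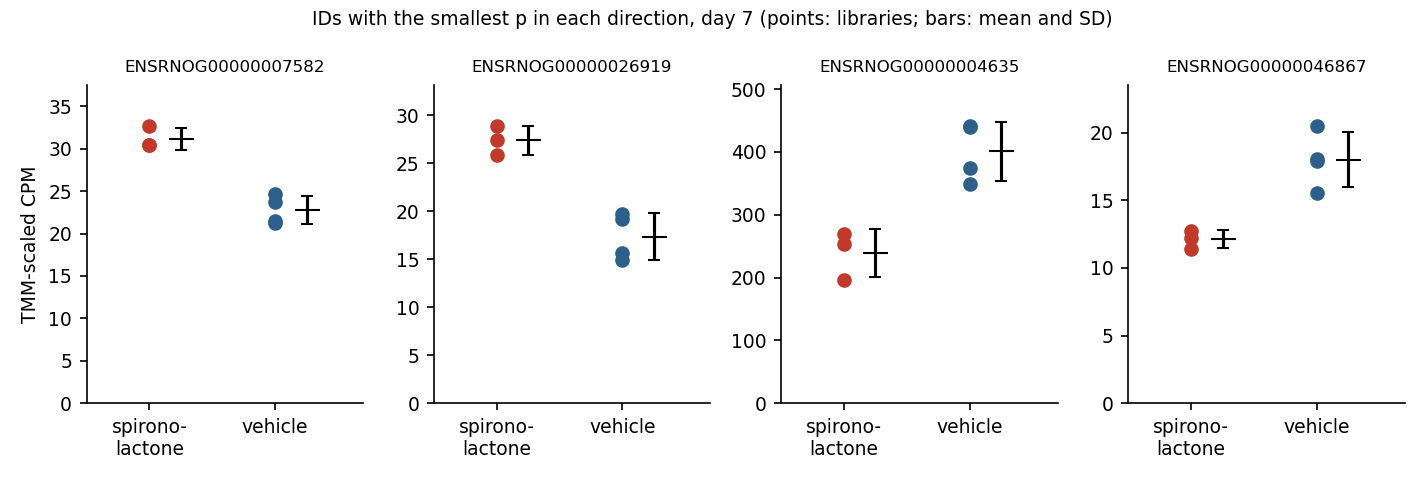
TMM-scaled CPM in each library (points) with the mean and SD of the group (bars) for the 2 IDs with the smallest p in each direction, in spironolactone (n = 3) and vehicle (n = 4). In each of the 4 panels the groups do not overlap, as for ENSRNOG00000007582 with a lowest treated value of 30.4 CPM and a highest vehicle value of 24.7 CPM.

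The IDs called by DESeq2 alone were moderately abundant and differed by modest amounts. The 88 calls had a median of 58.4 CPM (7.53 to 6876) and a median absolute log2 fold change of 0.55 (0.19 to 1.49), and 4 were past 2-fold, 3 higher and 1 lower. The groups did not overlap in 87 of the 88, against 12.3% of all tested IDs. All 88 had an unadjusted p under 0.05 in edgeR, against 13.1% of all tested IDs, and their edgeR adjusted p ran from 0.328 to 0.367. Since the 88 were chosen by the same difference in the same counts, nothing is read from the 87 or the 88. In 53 of the 88 the vehicle library closest to the spironolactone mean was vehicle replicate 4, and in 51 the farthest was vehicle replicate 1. Over all 15396 tested IDs vehicle replicate 4 was the closest in 38.5% and vehicle replicate 1 the farthest in 38.2%. Among the 2018 IDs with an edgeR unadjusted p under 0.05 the shares were 59.9% and 52.9%, so these positions were not particular to the DESeq2 calls.

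Calls by edgeR changed by at most 1 ID when a library was left out. Without spironolactone replicate 2, ENSRNOG00000062030 was called lower (edgeR adjusted p = 0.00326). It had 6.87 CPM in that library, 0 in the other spironolactone libraries and 6.32 to 9.36 CPM with vehicle. Without spironolactone replicate 3, ENSRNOG00000050651 was called lower (edgeR adjusted p = 0.0223), with 2.47 CPM in that library, 0 in the other 2 and 2.23 to 2.72 CPM with vehicle. Without vehicle replicate 4, ENSRNOG00000024986 was called higher (edgeR adjusted p = 0.0116). It had 24.2, 26.7 and 29.0 CPM with spironolactone and 11.5, 9.52, 8.73 and 36.6 CPM with vehicle, so vehicle replicate 4 lay above all treated libraries and the others below them. These 3 IDs are named because the number of calls turned on them. The number at an unadjusted p under 0.05 moved more: 1090 without vehicle replicate 1, 1169 without vehicle replicate 2, 1190 without spironolactone replicate 3 and 3123 without vehicle replicate 4, against 2018 with all libraries.

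Distances among the vehicle libraries overlapped those between vehicle and treated libraries. The root mean square difference in log2 CPM over all tested IDs averaged 0.43 over the 6 pairs of vehicle libraries (0.38 to 0.48), 0.40 over the 3 pairs of spironolactone libraries (0.38 to 0.41) and 0.44 over the 12 pairs between groups (0.39 to 0.52). The lowest distance within vehicle was between replicates 1 and 2, with 317 IDs more than 2-fold apart. The highest was between replicates 2 and 4, with 600. By this measure vehicle replicate 3 lay closer to spironolactone replicates 1 and 3, with 300 and 318 IDs past 2-fold, than to vehicle replicates 1, 2 and 4, with 419, 360 and 390. By chi-square per ID, which gives abundant IDs more weight, it lay closer to vehicle replicates 4 and 2 (13.2 and 14.4) than to spironolactone replicates 1 and 3 (16.1 and 17.5). It lay farther from vehicle replicate 1 (21.6) than from any spironolactone library (16.1, 19.1 and 17.5). By the same chi-square, vehicle replicate 4 lay closer to spironolactone replicates 1 and 2 (11.5 and 11.6) than to any vehicle library (13.2, 24.8 and 33.1). Vehicle replicate 1 and spironolactone replicate 3 were the most distant of the 21 pairs, with 640 IDs past 2-fold.

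**Figure D3:**
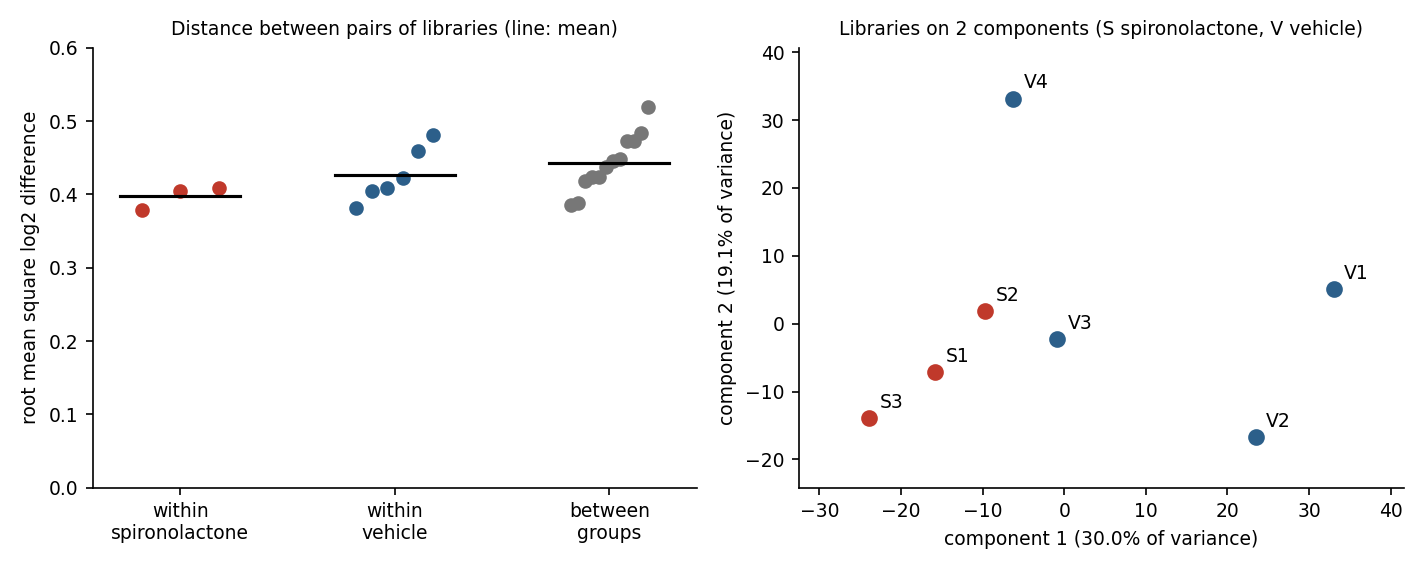
The left panel gives the root mean square log2 difference for each pair of libraries (points) and its mean (line), within spironolactone, within vehicle and between groups, and the right panel places the 7 libraries on the first 2 principal components of log2 CPM. The 3 kinds of pair overlap between 0.39 and 0.41. On component 1 vehicle replicates 1 and 2 lie apart from the other 5 libraries, and all 3 spironolactone libraries lie below all vehicle libraries.

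Per ID, vehicle values were spread somewhat more widely than treated ones. The median SD of log2 CPM was 0.13 in vehicle (n = 4) and 0.11 in spironolactone (n = 3), and the vehicle SD was the larger in 8952 IDs (58.1%). These SDs were not corrected for group size. With equal spread the SD of 4 values tends to exceed that of 3, so part of both differences can follow from the group sizes. An SD above 1 was found for 215 IDs in vehicle and 147 in spironolactone. The common biological coefficient of variation estimated by edgeR was 11.9% within vehicle and 9.77% within spironolactone. On component 1 of a principal component analysis, which held 29.96% of the variance, vehicle replicates 1 and 2 were at 33.1 and 23.5, vehicle replicates 3 and 4 at -0.89 and -6.22, and the spironolactone libraries between -23.9 and -9.66. All spironolactone libraries therefore lay below all vehicle libraries on component 1, a separation that was not tested. On component 2, with 19.1%, vehicle replicate 4 stood alone at 33.2, and the next highest library was at 5.08.

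The most variable transcripts fell mainly into 2 arrangements of the vehicle libraries. Among the 100 IDs with the largest vehicle SD at a mean of 5 CPM or more, vehicle replicates 3 and 4 held the 2 highest vehicle values in 49 and replicates 1 and 4 in 29. Over all tested IDs these arrangements made up 27.5% and 11.7%. In 33 of the 49, all 3 spironolactone values lay above those of vehicle replicates 1 and 2. The choice of these IDs partly fixes that count, and it was not computed over all tested IDs, so nothing is read from it. ENSRNOG00000015716 shows the arrangement, at 7.34, 14.5, 40.7 and 78.0 CPM in vehicle replicates 1 to 4 and 52.9, 83.1 and 112 CPM with spironolactone. ENSRNOG00000055996 was arranged likewise, with 1.41, 2.57, 6.40 and 22.8 CPM in vehicle and 9.80, 21.3 and 34.1 CPM with spironolactone. Neither differed past the threshold (edgeR adjusted p of 0.484 and 0.502), and in each vehicle replicate 4 lay within the treated range.

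In 18 of the 29 IDs of the other arrangement, all spironolactone values lay below both vehicle replicates 1 and 4. That count too is partly fixed by the choice of IDs, and nothing is read from it. ENSRNOG00000004583 had 24.5 and 36.5 CPM in these 2 libraries, 2.43 and 5.004 CPM in vehicle replicates 2 and 3, and 3.57, 7.26 and 1.91 CPM with spironolactone. ENSRNOG00000017645 had 17.6 and 24.5 CPM against 2.43 and 4.82 CPM in the other vehicle libraries and 2.43, 5.28 and 1.00 CPM with spironolactone. Their log2 fold changes of -2.00 (SE 1.03) and -2.08 (SE 0.95) had 95% intervals that include 0, -4.48 to 0.48 and -4.38 to 0.22. Of the 100 IDs, 12 had an unadjusted p under 0.05, near the 13.1% of all tested IDs. In 28 of the 100 all treated values lay within the vehicle range. Choosing IDs by a large vehicle spread favours that, and the share over all tested IDs was not computed, so nothing is read from the 28.

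**Figure D4:**
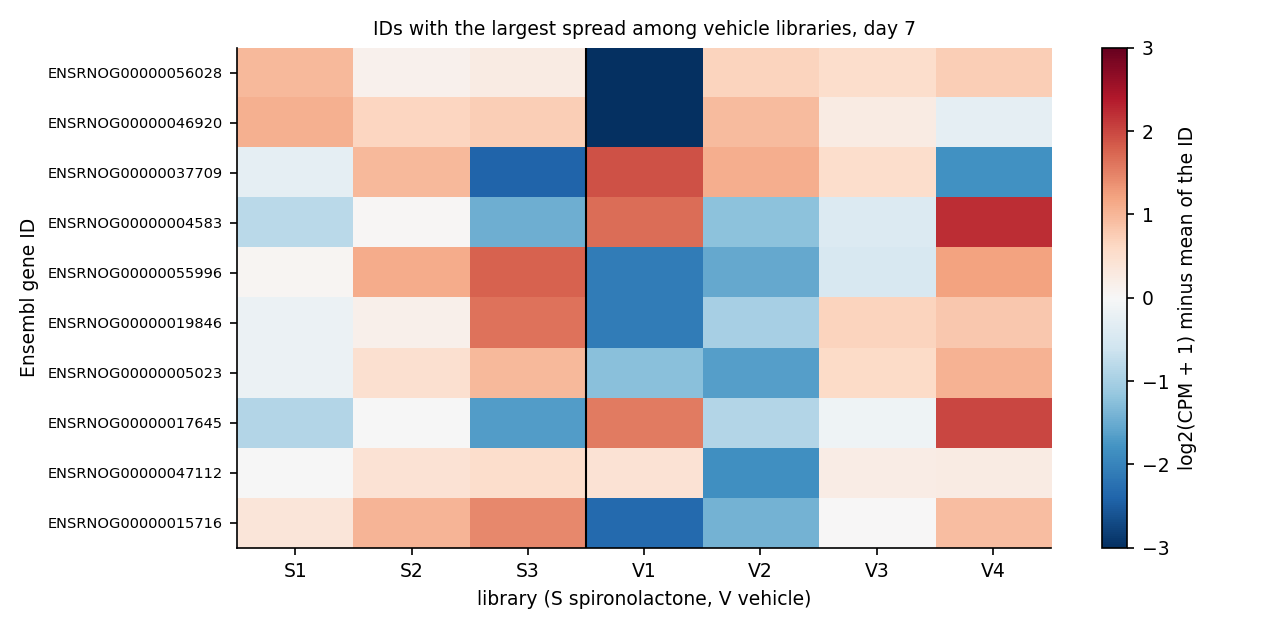
Colour gives log2(CPM + 1) minus the mean of the ID over the 7 libraries, for the 10 IDs with the largest SD among vehicle libraries (rows) in spironolactone replicates S1 to S3 and vehicle replicates V1 to V4 (columns), drawn within 3 in either direction. ENSRNOG00000004583 and ENSRNOG00000017645 are high in V1 and V4, and ENSRNOG00000056028 and ENSRNOG00000046920 are at 0 in V1.

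Some of the widest spreads came from IDs listed at 0 in single libraries. ENSRNOG00000056028 was at 0 in vehicle replicate 1 and at 14.3, 12.9 and 14.9 CPM in the other vehicle libraries and 17.96, 9.45 and 10.4 CPM with spironolactone. ENSRNOG00000046920 was likewise at 0 there, and its other values ranged from 7.75 to 20.8 CPM. In all, 28 IDs were at 0 in at least 1 library and at 5 CPM or more in another, and all 28 had estimated counts with decimals, as 15.1% of tested IDs did. Counts with decimals arise where reads are divided between features. Each library held from 3 to 9 of these zeros, and of the 25 IDs tested none had an unadjusted p under 0.05 in edgeR.

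The shares of counts in the most abundant transcripts were smaller with spironolactone, and for the 100 most abundant this held only with a run of adjacent IDs included. The most abundant ID and several of the 10 most abundant lie in the same run. The rest of the 10 by mean CPM were ENSRNOG00000003897, ENSRNOG00000003357, ENSRNOG00000017206 and ENSRNOG00000012840. Their log2 fold changes were 0.14, 0.13, -0.24 and -0.06, so they had no common direction. Shares without the run were not computed for the 1 or the 10 most abundant, so the 3 shares below are not separate results. The most abundant ID, ENSRNOG00000034234, took 1.85%, 1.80% and 1.92% of counts with spironolactone and 2.46%, 2.28%, 2.13% and 1.92% with vehicle, so its highest treated and lowest vehicle shares nearly met. The 10 most abundant IDs together took 9.16% ± 0.243 (SD, n = 3) against 10.4% ± 0.563 (SD, n = 4). The 100 most abundant took 23.9% ± 0.435 (SD, n = 3) against 24.9% ± 0.707 (SD, n = 4). For each of the 3 shares every treated library lay below every vehicle library. The two-sided p of an exact permutation test was 0.0571 for each, the lowest that this test can give with 3 and 4 libraries. As shares of the authors' TPM, which is scaled for length, the differences of the means were -1.29, -3.81 and -2.82 percentage points for the 1, 10 and 100 IDs highest by TPM, against -0.34, -1.23 and -1.04 as shares of counts for those with the most counts.

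A larger difference was found in abundant IDs listed next to each other. Of the 30 IDs highest by the authors' TPM, 12 lay within 37 consecutive rows of the deposited files. This run was noticed in the data, and no source used here says what its IDs encode. It held 16 tested IDs, 15 of them over 100 CPM, and the 21 rows not tested were at most 75 bases long. The run took 6.39%, 6.63% and 6.61% of counts in the spironolactone libraries and 10.1%, 9.15%, 8.16% and 6.90% in vehicle replicates 1 to 4. The treated libraries were close together and below all vehicle libraries, of which replicate 4 was nearest to them. The difference of the means was -2.04 percentage points, and it was -1.52 without vehicle replicate 1 and -2.60 without vehicle replicate 4. As a share of the authors' TPM the run took 14.6% ± 0.809 (SD, n = 3) against 19.2% ± 3.34 (SD, n = 4), a difference of -4.53 points. The other 89 of the 100 most abundant IDs, summed after the run had been seen, took a larger share of counts on average with spironolactone. It was 17.7%, 17.8% and 16.9% in those libraries and 16.1%, 15.9%, 16.4% and 17.8% with vehicle, where replicate 4 overlapped the treated libraries. Shares of one total are not independent, so a smaller share of the run leaves a larger share to the rest.

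Within the run 15 of the 16 tested IDs had negative log2 fold changes, with a median of -0.48 against -0.01 over all tested IDs. Of the 16, 13 had an unadjusted p under 0.05, all lower, against 6.65% of all tested IDs. Without overlap 7 were lower, against 5.87% of all tested IDs, and the lowest adjusted p by edgeR was 0.367. The run was noticed in these same data and its IDs varied together over the vehicle libraries. The 16 IDs are therefore not independent results. ENSRNOG00000031033 had 4260, 4417 and 4549 CPM with spironolactone and 7928, 6990, 6142 and 5007 CPM in vehicle replicates 1 to 4. Its log2 fold change was -0.56 (SE 0.14). ENSRNOG00000030371 had 5140, 5857 and 5550 CPM against 9321, 8708, 7507 and 6047 CPM, a log2 fold change of -0.52 (SE 0.14), and was among the DESeq2 calls (DESeq2 adjusted p = 0.0306). Both kept the groups apart, and in both vehicle replicate 1 was the highest and replicate 4 the lowest of the vehicle libraries, as in 15 of the 16 IDs for each position. ENSRNOG00000034234, at 18277, 18147 and 19046 CPM against 24998, 22966, 21193 and 19198 CPM, had a log2 fold change of -0.26 (SE 0.11), the nearest to 0 of the 12 in the run among the 30 highest by TPM.

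**Figure D5:**
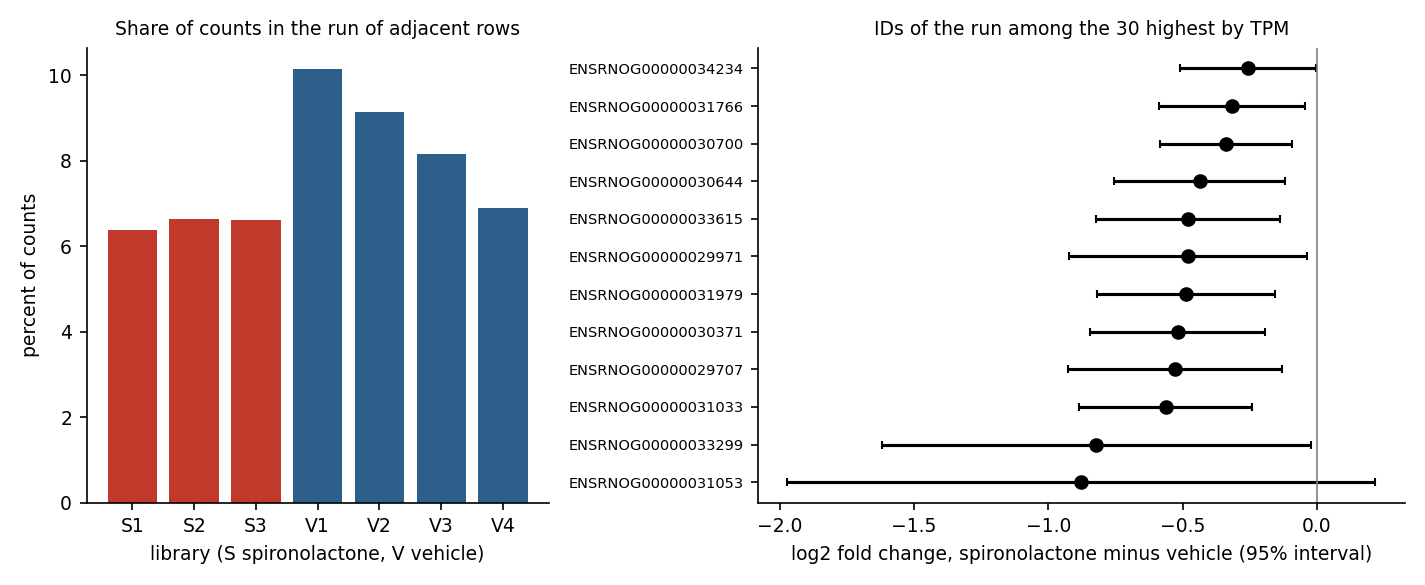
The left panel gives the percent of counts in the 37 adjacent rows for each library (bars; S1 to S3 spironolactone, V1 to V4 vehicle) and the right panel the log2 fold change, spironolactone minus vehicle, with its 95% interval for the 12 IDs of the run among the 30 highest by TPM. The bars run from 6.39% to 10.1%, and all 12 log2 fold changes are negative, from -0.88 to -0.26.

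The abundant IDs outside the run showed no common direction. Of the other 18 IDs among the 30 highest by TPM, 10 had positive and 8 negative log2 fold changes, with a median of 0.07. In 4 of the 18 the groups did not overlap, against 12.3% of all tested IDs in either direction. ENSRNOG00000003897, which took the second most counts, had 16395, 18578 and 15353 CPM with spironolactone and 14503, 13455, 13896 and 18884 CPM with vehicle. ENSRNOG00000003357 followed it with 12752, 13570 and 11475 CPM against 9757, 10011, 10647 and 15767 CPM. For both IDs the treated libraries lay above vehicle replicates 1 to 3 and below replicate 4, with log2 fold changes of 0.14 (SE 0.14) and 0.13 (SE 0.17). ENSRNOG00000017206, also outside the run, had 5862, 6086 and 5771 CPM against 7054, 7362, 6621 and 6819 CPM, with no overlap and a log2 fold change of -0.24 (SE 0.080). It was a DESeq2 call (DESeq2 adjusted p = 0.0081). Among the 100 IDs with the most counts, none differed by more than 2-fold between the group means. Of these 100, 12 had an unadjusted p under 0.05 in the higher direction and 15 in the lower, against 6.46% and 6.65% of all tested IDs, and 11 of the 15 lay in the run.

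The direction of small differences varied with transcript length and with abundance. Among IDs of 4000 bases or more, 226 had an unadjusted p under 0.05 with higher and 127 with lower values under spironolactone, of 2632 tested. Over all tested IDs the shares were 6.46% higher and 6.65% lower. Among the 446 IDs under 500 bases the counts were 27 and 46, and among the 4915 IDs of at least 1000 and under 2000 bases 282 and 366. The median log2 fold change stayed near 0 in each class (-0.01 under 500 bases, 0.00 at 4000 bases or more). With effective-length offsets the counts at 4000 bases or more were 244 higher and 110 lower. The median deviation of the longest class from the mean over libraries was 0.03 and 0.02 in spironolactone replicates 2 and 3 and 0.05 and 0.01 in vehicle replicates 2 and 1, and it was -0.03, -0.02 and -0.03 in spironolactone replicate 1 and vehicle replicates 3 and 4. It did not separate the groups, and its part in the counts was not tested. Longer IDs were also more abundant, with a median of 3.81 CPM under 500 bases and 52.3 CPM at 4000 bases or more. Of 4046 IDs at 1 to 10 CPM, 140 were higher and 227 lower at an unadjusted p under 0.05. Of 2112 IDs over 100 CPM, 199 were higher and 147 lower. The parts of length and abundance were not tested apart.

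The deposited length of an ID gave a further readout, examined after the files were seen. It was the same in every library for most IDs and varied for 3982 of the tested ones. The sources used here do not say how the authors computed it. Limma on log2 length called 1 of the 3982 IDs, with 257 (6.45%) at an unadjusted p under 0.05, 145 longer and 112 shorter with spironolactone. The called ID, ENSRNOG00000050298, had a length of 1587 bases in each of the 3 treated libraries and 1364, 1389, 1419 and 1388 bases in vehicle (limma adjusted p = 0.0457). Its level did not differ past the threshold, at 18.1 ± 0.410 CPM (SD, n = 3) and 17.7 ± 2.44 CPM (SD, n = 4), with a 95% interval of the log2 fold change from -0.20 to 0.27. The call was lost without any 1 of the 3 spironolactone libraries, vehicle replicate 2 or vehicle replicate 4 (limma adjusted p between 0.108 and 0.441).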

How the data were processed

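Estimated counts of 7 day 7 libraries were analysed. The authors deposited 1 file per library with estimated counts, TPM (the authors' own), length and effective length for each Ensembl ID, as the file headers show. The submitters' processing notes name DRAGEN, RSEM 1.2.28, STAR 2.5.3a and other tools without their roles. The program that wrote these files and its use of strand are not given in the sources used here. Overlapping and antisense genes, and near-identical copies, may share reads. Counts were rounded, filtered by edgeR's expression filter (minimum count 10), scaled by TMM and tested with edgeR 4.0.16 in R 4.3.3 (quasi-likelihood, robust), adjusted by Benjamini-Hochberg over all tested IDs at 0.05. The standard error of a log2 fold change was taken from the F statistic (change over root F). Log2 CPM used a prior count of 2. Lengths were tested with limma 3.58.1. DESeq2 1.42.0 gave no adjusted p for 4179 IDs.

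IDs named were the 2 with the smallest p per direction, the most abundant and the most variable in vehicle where a value turned on them, and a few said to be named for another reason. The groups and rules were chosen with earlier results of these data known. Tests were checked on simulated data. Day 3 libraries were not used here, and levels were not compared between days. Alternatives were DESeq2, limma-voom with and without sample weights, RLE scaling, other filters, effective-length offsets, a replicate block and each library left out.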

Additional observations from a re-analysis of the deposited data

Results flagged for a closer look

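Of 32 values examined over the 4 vehicle libraries, 2 had a single library far from the rest by Dixon's criterion at 95%. Chance meets that criterion in about 1 of 20 groups when values are not chosen for their spread. The values included IDs chosen for a large spread among vehicle libraries, ENSRNOG00000056028 first among them, and for these that rate does not apply. ENSRNOG00000003357 was at 15767 CPM in vehicle replicate 4 and at 9757 to 10647 CPM in the other 3 vehicle libraries, a gap of 0.852 of the range. ENSRNOG00000056028 was at 0 CPM in vehicle replicate 1 and at 12.9 to 14.9 CPM in the others, a gap of 0.863 of the range.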

How the results depend on the processing

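The count of 0 IDs past the threshold by edgeR was also 0 with limma-voom, sample weights, RLE scaling, effective-length offsets, no filter on low counts, at least 1 CPM in 3 libraries and, added after seeing the data, without the run of adjacent rows (lowest adjusted p by edgeR or limma 0.252 to 0.385 over these 7 alternatives). DESeq2 called 88. Leaving out each library gave 0 to 1 calls. With the replicate number as a block, edgeR called 861 IDs, 582 higher and 279 lower. The block leaves vehicle replicate 4 without a partner, so that library adds nothing to the treatment difference, which then rests on the same-numbered libraries alone. Under the block the 4 IDs with the smallest p were past the threshold (edgeR adjusted p 0.00178 to 0.00971), as were ENSRNOG00000055996 (1.31e-04) and ENSRNOG00000030371 (0.0109). The log2 fold change of ENSRNOG00000055996 was 2.70 under the block, 2.62 without vehicle replicate 4 and 1.43 with all libraries. The labels do not say that the numbers pair animals, and deviations of same-numbered libraries from their group means correlated at 0.01, 0.06 and 0.20; spironolactone replicate 3 alone correlated best with the vehicle library of its own number. Of the named IDs, ENSRNOG00000056028 changed sign, to -0.08 without spironolactone replicate 1 and -0.16 without vehicle replicate 1, within a range of -0.16 to 0.47 over the left-out libraries. ENSRNOG00000019846 did too, to -0.025 without spironolactone replicate 3, within -0.025 to 1.22. Neither was past the threshold in any of these. The mean distance between vehicle libraries was 0.499 with a prior count of 0.5 and 0.373 with 5. Leaving out each library gave 0 to 3 calls on length. The lower share of counts in the most abundant IDs kept its direction in every alternative tried for it. None of these left out the run of adjacent rows. Gene lists were not run, since no source used here names the day 7 IDs. Rare transcripts had the widest intervals: under 1 CPM, 0.288% of IDs had an interval within 1.5-fold. The part of depth in this was not tested.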
